A study of Homo sapiens with 8 samples.

Results

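The DMSO control libraries of DND-41 and MOLT-4, 2 human lines from T-cell acute lymphoblastic leukaemia (T-ALL), were compared by RNA sequencing, to describe how the lines differed in the absence of the study's degrader. In the study, cells of each line received either 100 nM ACBI-1, a bifunctional degrader of SMARCA2, SMARCA4 and PBRM1 that works through the VHL ubiquitin ligase, or its solvent DMSO for 3 h. Only DMSO libraries were taken, by line and treatment in the sample titles: 4 of 8 libraries, 2 of DND-41 and 2 of MOLT-4, joined gene by gene through Ensembl identifiers. Both lines grew in the same serum-supplemented RPMI-1640 medium, so DMSO, medium and the 3 h exposure were shared and none of the 4 libraries came from cells without solvent. Each line is a single established culture of leukaemic cells, and each was deposited in a count table of its own, so the line cannot be told apart from anything else in which the cultures or tables differed. The labels do not say whether the 2 libraries of a line came from separate cultures, and the p-values then measure the spread between these libraries only, which may be technical.

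T-ALL arises from thymocytes, the developing T cells of the thymus, and cases fall into groups by the transcription factor that has been switched on. TLX3, a homeobox factor normally silent in the T lineage, marks one group. TAL1, a basic helix-loop-helix factor that works in a complex with the E proteins TCF3 and TCF12 and with LMO, GATA and RUNX partners, marks another, and both lines are known for an activated NOTCH1 receptor. Normal thymocytes grow under interleukin-7 and Notch signals, cut and rejoin their T-cell receptor genes with the RAG enzymes, and lose the growth signals as the finished receptor takes over.

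Total counts lay between 19867779 and 20082524 per library, so a gene at 1 CPM, a count scaled to a common library size, had about 20 reads. The 2 libraries of a line correlated at 0.994 and 0.995 on the log CPM scale and libraries of different lines at 0.814 to 0.828. DMSO replicate 2 of DND-41 held low counts of genes typical of MOLT-4: 31 genes that were high in MOLT-4 and nearly silent in DND-41 replicate 1 stood there at a median of 0.589% of their MOLT-4 level (0.232% to 1.3%). Replicate 1 was used to choose them, so its own value is no comparison. In the same check MOLT-4 replicate 2 held 13 DND-41 genes at a median of 0.08%, and MOLT-4 replicate 1 held 12 at 0%. Where these traces came from was not tested. Single counts of MOLT-4 genes in that library were therefore read together with replicate 1. Of 10 T-lineage check genes 10 reached 1 CPM, summing to 4758 to 4904 CPM per library. Among markers of other cells, 16 of 18 myeloid, 17 of 18 erythroid and megakaryocyte, 13 of 21 natural killer and 11 of 16 epithelial and fibroblast genes stayed below 1 CPM in every library, with no counts at all for 6, 8, 5 and 9 of them. The epithelial and fibroblast sum was 347 and 370.3 CPM in DND-41 and 390.0 and 366 in MOLT-4, mostly from VIM, an intermediate filament gene that T cells also express (298 and 311 against 386 and 361 CPM). PDGFRB, a growth factor receptor gene of fibroblasts, was higher in DND-41 (46.8 and 56.9 against 1.08 and 1.64 CPM), while KRT8 had 1 and 1 counts against 22 and 19 and COL1A1 1 and 1 against 32 and 38. In such comparisons DND-41 comes first. The myeloid sum was 2.36 and 2.35 CPM in DND-41 and 19.3 and 15.7 CPM in MOLT-4, in MOLT-4 mostly from CEBPE (18.1 and 14.5 CPM), and markers of B cells stood higher and are described with the genes of that lineage.

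The lines differed at a large share of their transcripts. Of 14984 genes with enough counts to test, 66.1% differed at an adjusted p of 0.05 (edgeR's quasi-likelihood test with Benjamini-Hochberg adjustment over all tested genes), 4851 higher in DND-41 (32.4%) and 5058 higher in MOLT-4 (33.8%). Because so many genes passed, a difference was counted below only if it also reached 2-fold, which left 3931 genes or 26.2% of those tested, 1763 higher in DND-41 (11.8%) and 2168 higher in MOLT-4 (14.5%). Counts of list members given below are to be read beside these shares, those at 5% beside 32.4% and 33.8%, those at 2-fold beside 11.8% and 14.5%. A gene could pass the count filter through 1 line alone. In lists with many silent members this favours large differences among the tested ones, so their shares are not directly comparable with those over all genes. The 2 libraries of one line lay outside the range of the other for 82.3% of tested genes. The median log2 fold change over all tested genes, always DND-41 minus MOLT-4, was -0.0084. Every gene said below to be higher in a line passed the 5% threshold, and its 2 libraries both lay above both libraries of the other line. Genes that did not pass are given with their values. Pairs of values are DMSO replicates 1 and 2, and ± gives an approximate standard error of a log2 fold change. It was taken as the absolute log2 fold change divided by the square root of the F statistic of the quasi-likelihood test. Reads of overlapping or antisense genes could not be separated, since no source used here states whether counting was stranded.

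**Figure D1:**
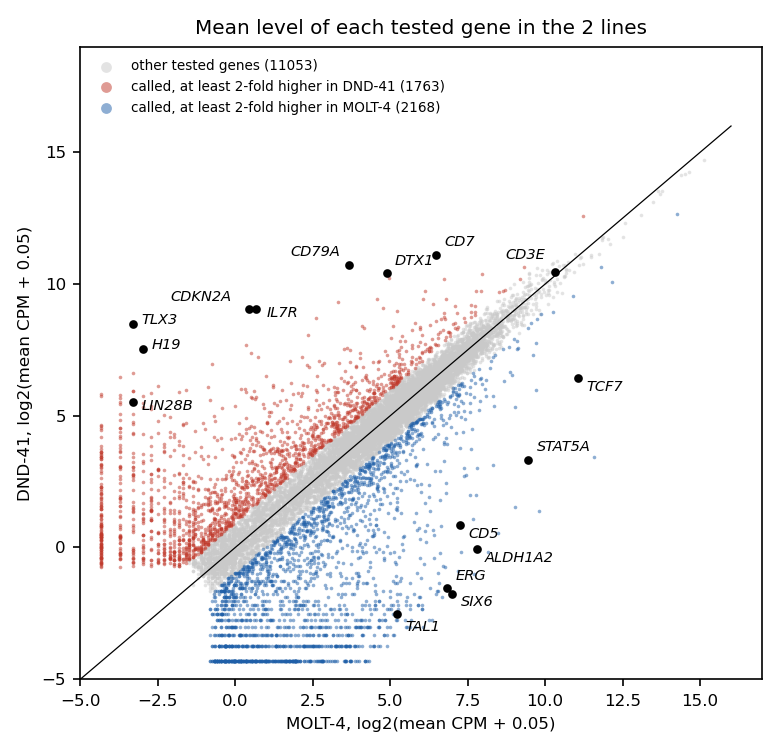
Mean level of each of the 14984 tested genes in MOLT-4 (x axis) and DND-41 (y axis), each as log2 of the mean CPM of 2 libraries plus 0.05. Coloured points are the 1763 and 2168 genes called at least 2-fold higher in DND-41 or MOLT-4, black points are named genes, and the diagonal marks equal levels: TLX3 and H19 lie far above it, TAL1, SIX6 and ERG far below it, and CD3E close to it.

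Some genes were far more abundant in one line. With at least 5 CPM in one line and a level at least 50-fold lower in the other (the lower line never set below 3 counts per library), 117 genes were restricted to DND-41, 97 of them protein-coding, and 250 to MOLT-4, 238 of them protein-coding. These were 1.09% and 2.32% of the 10769 genes that reached 5 CPM in either line. In the lower line 106 of the 117 and 237 of the 250 had a mean below 1 CPM, and the others reached up to 12.6 and 10.9 CPM. TLX3 (ENSG00000164438) led the DND-41 genes with 7115 and 7523 counts in its libraries, 349 and 369 CPM, against 1 and 1 counts in the MOLT-4 libraries, a ratio of 6996 with a 95% counting interval of 1936 to 57770. Next came H19, an imprinted non-coding RNA, with 181 and 187 CPM in DND-41 and 0 and 3 counts in MOLT-4. Also among the leading 15 of at least 20 CPM, receptor segments left out, were ISOC2, the membrane peptidase gene MME that encodes the lymphoid antigen CD10, the cell-cycle inhibitor CDKN2A, MDFIC, ZNF358, CMTM7, CHRM3-AS2, the pseudogene LRRC37A16P, the potassium-channel regulator ABCC8, the interleukin-7 receptor IL7R, RNF144A-AS1 and LIN28B, an inhibitor of let-7 microRNAs. ABCC8 had 1080 and 1089 counts in DND-41 and none in MOLT-4, at least 346-fold higher against a floor of 3 counts per library. MME had 94.6 and 82.5 CPM in DND-41 and 0 and 1 count in MOLT-4, a ratio of 3450 with a 95% counting interval of 619 to 136300.

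Leaving out receptor segments and genes under 20 CPM, as for DND-41, the MOLT-4 genes were led by PLEKHG4, NFATC2, CDCA7L, C1orf228, SIX6, KRBA1, ERG, NT5DC2, GFRA1, ABCA1, ATP9A, NKAIN4, NDST1, FNIP2 and SPINT2. NFATC2, a transcription factor of T-cell activation, had 65.1 and 67.5 CPM in MOLT-4 and 0 and 3 counts in DND-41, a ratio of 901 with a 95% counting interval of 308 to 4373. CDCA7L, which binds MYC, had 81.6 and 69.9 CPM and 0 and 4 counts. GFRA1, a receptor for glial-derived growth factors, had 94.2 and 108 CPM and 0 and 9 counts, and ABCA1, the cholesterol exporter, 48.2 and 50.97 CPM and 0 and 3 counts. For most of these genes the few DND-41 counts fell in replicate 2, the library with MOLT-4 traces: C1orf228 had 0 and 18 counts and NKAIN4 1 and 33. With the estimated MOLT-4 reads subtracted from that library 264 genes were restricted to MOLT-4, and 117 to DND-41.

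The 2 driver factors were each found in 1 line. TAL1 (ENSG00000162367) had 37.7 and 37.1 CPM in MOLT-4 and 1 and 4 counts in the DND-41 libraries, a ratio of 305 with a 95% counting interval of 130.2 to 939.7. LMO2, the bridging partner of TAL1, had 5.902 and 4.47 CPM in MOLT-4 and no counts in DND-41, at least 35.2-fold higher. In bulk RNA such as this, fewer cells with a transcript and less of it per cell cannot be told apart. LMO1, TLX1, TAL2, NKX2-1 and HOXA9 stayed under 10 counts in all 4 libraries. LYL1, a relative of TAL1, was low in both lines (0.687 and 0.736 CPM in DND-41 and 0.205 and 0.257 in MOLT-4) and higher in DND-41 by 1.60 ± 0.44 on the log2 scale (edgeR, adjusted p = 0.00617), a call that did not hold with DESeq2 (adjusted p = 0.107) or without DND-41 replicate 2 (0.0561) or MOLT-4 replicate 1 (0.0644). Of 20 factors listed as T-ALL drivers 7 could be tested, and 2 were at least 2-fold higher in DND-41 and 4 in MOLT-4.

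Unlike LMO2, the TAL1 partners TCF3, TCF12, GATA3, LDB1 and RUNX1 were present in both lines. TCF3, an E protein, had 557 and 558 CPM in DND-41 and 695 and 682 in MOLT-4 (-0.30 ± 0.05 on the log2 scale), and TCF12, another E protein, 158 and 157 against 125 and 124 (0.33 ± 0.05). GATA3, a T-lineage zinc finger factor, had 213 and 201 against 255 and 253 CPM (-0.30 ± 0.05), and LDB1, the adaptor that joins LMO proteins to GATA factors, 182 and 187 against 215 and 209.6 (-0.20 ± 0.05). All 4 passed 5% and none reached 2-fold, and the LDB1 call was lost without DND-41 replicate 1 (edgeR, adjusted p = 0.085). RUNX1 and MYB did: RUNX1 had 413 and 412 CPM in DND-41 and 865 and 854 in MOLT-4 (-1.06 ± 0.05), and MYB 362 and 375 against 779 and 725 (-1.03 ± 0.06). Of the inhibitors of E proteins, ID2 was higher in DND-41 (20.9 and 21.9 against 2.05 and 1.33 CPM, 3.65 ± 0.16) and ID1 in MOLT-4 (4.32 and 5.15 against 9.24 and 11.5 CPM, -1.13 ± 0.16). ID3 had 56.5 and 52.4 CPM in DND-41 and 53.4 and 51.8 in MOLT-4, a difference of 0.050 ± 0.07 that did not pass. Over the list of the complex with its E and ID proteins, 1 of 15 tested members was at least 2-fold higher in DND-41 and 5 in MOLT-4, and the median was -0.30.

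Genes known to be regulated with TAL1 in T-ALL were mostly higher in MOLT-4: 10 of 14 tested members at least 2-fold, against 2 in DND-41. Together these were 85.7% of the tested members, and the median log2 fold change was -1.22. ALDH1A2, a retinoic acid synthesis enzyme, had 222 and 221 CPM in MOLT-4 and 0.196 and 1.62 in DND-41. SIX6, a homeobox gene, had 132 and 123 CPM and 0 and 10 counts in DND-41, and ERG, an ETS factor of blood stem cells, 122 and 106 CPM and 2 and 10 counts. In DND-41 the counts of ALDH1A2, SIX6 and ERG lay mainly in replicate 2, and all 3 genes were silent or nearly so in replicate 1. ARID5B, a DNA-binding activator, had 1.28 and 1.81 CPM in DND-41 and 57.3 and 57.8 in MOLT-4 (-5.21 ± 0.12). The 2 members that went the other way were NFKB1, the gene of an NF-kB subunit (59.3 and 70.3 CPM in DND-41 and 8.26 and 7.39 in MOLT-4, 3.05 ± 0.11), and TRIB2, a pseudokinase gene (94.995 and 95.9 against 27.5 and 28.6, 1.77 ± 0.06).

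**Figure D2:**
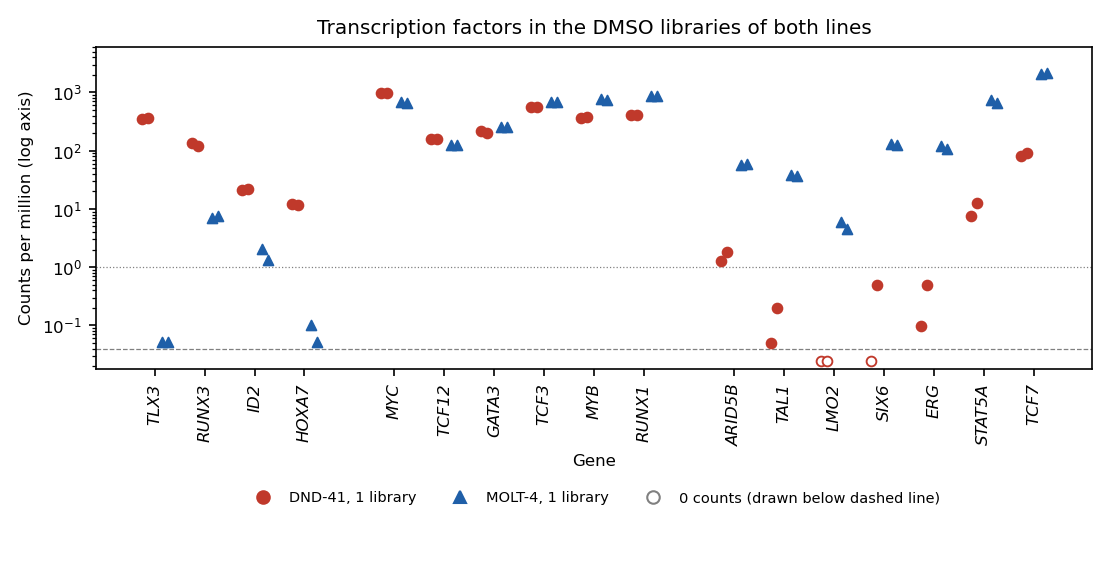
CPM of 17 transcription factor genes in each of the 4 DMSO libraries on a log axis: circles are DND-41 libraries, triangles MOLT-4 libraries, and open symbols below the dashed line are libraries with 0 counts. The 4 genes at the left are higher in DND-41 and the 7 at the right in MOLT-4, with no overlap between lines. MYC, TCF12, GATA3, TCF3, MYB and RUNX1 in the middle differ between lines by about 2-fold or less.

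The promoters of TLX3, TAL1 and IL7R are shown because these genes were among those that set the lines furthest apart. Each window runs from 250 bases before to 50 bases after an annotated start in RefSeq (GRCh38.p14), is written 5′ to 3′ along the gene and carries in capitals any match, on either strand, to 4 motifs: the E-box CAGATG of TAL1 with E proteins, the GATA-factor motif AGATAA, the RUNX-factor motif TGTGGT and the homeobox-factor motif TAATTA. No matches overlapped in these windows. TLX3 has its window at chr5:171308998-171309297 on the plus strand, TAL1 has windows at chr1:47232286-47232585 and chr1:47231666-47231965 on the minus strand, and IL7R at chr5:35856641-35856940 on the plus strand.
TLX3: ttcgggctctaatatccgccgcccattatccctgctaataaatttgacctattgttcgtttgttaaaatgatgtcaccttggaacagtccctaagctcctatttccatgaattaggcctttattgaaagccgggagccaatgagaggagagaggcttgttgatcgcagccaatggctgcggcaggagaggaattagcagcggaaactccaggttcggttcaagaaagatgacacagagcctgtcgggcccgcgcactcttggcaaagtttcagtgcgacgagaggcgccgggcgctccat
TAL1, upstream start: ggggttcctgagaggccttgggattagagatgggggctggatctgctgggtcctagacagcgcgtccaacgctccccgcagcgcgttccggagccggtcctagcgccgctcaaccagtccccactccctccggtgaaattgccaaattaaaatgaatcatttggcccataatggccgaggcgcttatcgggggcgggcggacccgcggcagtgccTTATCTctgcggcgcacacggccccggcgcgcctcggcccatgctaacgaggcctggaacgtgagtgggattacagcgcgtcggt
TAL1, downstream start: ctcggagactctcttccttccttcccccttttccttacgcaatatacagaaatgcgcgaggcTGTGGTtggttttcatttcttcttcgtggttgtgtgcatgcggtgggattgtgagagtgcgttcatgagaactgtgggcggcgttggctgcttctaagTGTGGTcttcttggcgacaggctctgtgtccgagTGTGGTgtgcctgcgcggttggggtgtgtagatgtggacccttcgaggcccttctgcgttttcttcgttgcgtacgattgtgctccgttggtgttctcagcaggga
IL7R: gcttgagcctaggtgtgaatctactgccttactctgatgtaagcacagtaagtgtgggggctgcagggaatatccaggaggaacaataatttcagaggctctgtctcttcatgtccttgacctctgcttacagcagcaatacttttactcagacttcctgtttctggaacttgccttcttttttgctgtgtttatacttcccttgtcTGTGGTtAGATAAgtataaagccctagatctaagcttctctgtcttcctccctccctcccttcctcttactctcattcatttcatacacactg
TLX3 held no match and 17 CpG dinucleotides. The upstream TAL1 window held 1 GATA match and 30 CpG, the downstream window 3 RUNX matches and 19 CpG. The IL7R window held a RUNX match and a GATA match 1 base apart and 0 CpG. Over all tested genes 9506 of 14965 symbols matched a RefSeq entry, with 13859 windows and a median of 25 CpG per window. Windows of the DND-41-restricted genes (82 of 117 matched, 120 windows) had a median of 19 CpG, and those of the MOLT-4-restricted genes (177 of 250 matched, 299 windows) 23. The RUNX motif was in 18.3% of the DND-41 windows and 12% of the MOLT-4 windows, against 10.4% of all. The GATA motif was in 6.67% and 10%, against 5.84%, the E-box in 13.3% and 16.7%, against 10.3%, and the homeobox motif in 2.5% and 4.01%, against 2.24%. These are counts of letters in windows, several of which can belong to 1 gene, and binding was not measured.

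The lines also differed in homeobox genes. In the HOXA cluster HOXA3, HOXA5, HOXA6 and HOXA7 were higher in DND-41, and HOXA10 in MOLT-4. HOXA7 was at 11.97 and 11.5 CPM against 2 and 1 counts in MOLT-4, a ratio of 153 with a 95% counting interval of 51.9 to 743, and HOXA10 had no counts in DND-41 and 25 and 20 in MOLT-4, at least 7.85-fold higher. The HOXB genes that could be tested were higher in MOLT-4, with HOXB4 at 27.4 and 26.7 CPM against 0 and 7 counts in DND-41 and HOXB3 at 18.2 and 20.02 CPM against 0 and 3 counts. Of 39 HOX genes 12 could be tested, and 5 were at least 2-fold higher in each line. HOXD13 was at 15.7 and 16.5 CPM in DND-41 and 20.8 and 22.02 in MOLT-4 (-0.41 ± 0.09). Of 36 other homeobox genes that could be tested 7 were higher in DND-41 and 9 in MOLT-4. DLX1 had 17.1 and 16.8 CPM in DND-41 and 0.616 and 0.616 in MOLT-4 (4.77 ± 0.18). IRX1 had 12.6 and 12.9 CPM in MOLT-4 and 0 and 1 count in DND-41.

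Of 35 factors of the T lineage 34 had enough counts to test. Of these 7 were at least 2-fold higher in DND-41 and 11 in MOLT-4, and the median was -0.30. TCF7, which sets the T-cell programme downstream of Notch, had 82.2 and 89.3 CPM in DND-41 and 2083 and 2181 in MOLT-4 (-4.64 ± 0.07; edgeR, adjusted p = 3.28e-13). Its relative LEF1 was high in both, at 1299 and 1235 against 1564 and 1561 CPM (-0.30 ± 0.06). RUNX3, a factor of cytotoxic and innate-like T cells, went the other way, with 135 and 122 CPM in DND-41 and 6.98 and 7.54 in MOLT-4 (4.14 ± 0.09), as did PRDM1, a repressor of late lymphocyte stages (13.1 and 14.7 against 0.513 and 0.308, 5.06 ± 0.23). BCL11B, a factor of T-cell commitment, was higher in MOLT-4 by less than 2-fold (66.2 and 67.3 against 118 and 134 CPM, -0.92 ± 0.07). IKZF1, the lymphoid zinc finger factor, differed little, at 353 and 349 against 381 and 389.8 CPM (-0.14 ± 0.05), a call lost with total-count scaling (edgeR, adjusted p = 0.189) and without DND-41 replicate 1 (0.131) or 2 (0.126) or MOLT-4 replicate 2 (0.0815).

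Of 22 genes of early progenitors 10 could be tested, and 6 of them were at least 2-fold higher in MOLT-4 against 2 in DND-41. The 6 include TAL1 and LMO2, described above, and FLT3, which had only 19 and 23 counts in MOLT-4. The 2 include LYL1, whose call did not hold in several settings. CD34, the stem cell antigen, had 31.7 and 23.97 CPM in MOLT-4 and 1 and 1 count in DND-41, a ratio of 568 with a 95% counting interval of 157 to 4693. NFE2 had 42.6 and 37.6 CPM in MOLT-4 and 0.0981 and 0.638 in DND-41. CD44, an adhesion receptor of progenitors, was higher in DND-41 (216 and 208 against 73.1 and 67.2 CPM, 1.60 ± 0.06). KIT, MEF2C, SPI1 and HOPX stayed under 10 counts in all libraries.

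The T-cell receptor apparatus was present in both lines with different receptor chains. CD3E, the signalling subunit, was at 1419.9 and 1423 CPM in DND-41 and 1246 and 1323 in MOLT-4 (0.15 ± 0.06; edgeR, adjusted p = 0.053), a difference that did not pass 5% and did pass with total-count scaling (0.00974), DESeq2 (0.0319), limma-voom (0.0224) and without MOLT-4 replicate 2 (0.0412). TRDC, the delta-chain constant gene, had 1142 and 1151 counts in DND-41 and none in MOLT-4, at least 365-fold higher. PTCRA, the pre-T-cell receptor alpha chain that pairs with a rearranged beta chain, had 218 and 301 counts in MOLT-4 and none in DND-41, at least 90.5-fold higher. TRAC, the alpha-chain constant gene, had 0.883 and 0.834 CPM in DND-41 and 17.1 and 16.7 in MOLT-4 (-4.29 ± 0.17). TRBC2, a beta-chain constant gene with a near-identical copy in TRBC1, had 1061 and 1113 against 4538 and 4666 CPM (-2.08 ± 0.07), and how reads of the pair were assigned is not given in the sources used here. The delta constant gene was thus the DND-41 one, and the alpha and beta constant genes, both detected in each line, were higher in MOLT-4.

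Among the variable segments, delta stood out in DND-41 and beta in MOLT-4. In DND-41 the delta variable segments had 944 and 940 counts, of which TRDV1 took 99.9% and 99.7%, and in MOLT-4 they had 0 and 1. In MOLT-4 the beta variable segments had 18964 and 16861 counts, of which TRBV20-1 took 96.6% and 96.3%. DND-41 had 418 and 517 beta segment counts led by TRBV6-5 with 27.8% in replicate 1 and by TRBV20-1 with 19.5% in replicate 2, the library with MOLT-4 traces. TRBV20-1 had 3 and 101 counts in the 2 DND-41 libraries. Alpha segments had 50 and 58 counts in DND-41 and 22 and 28 in MOLT-4, where TRAV1-1 took 22 and 26. Gamma segments had 374 and 400 counts in DND-41, spread over several segments, and 39 and 44 in MOLT-4.

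Surface proteins around the receptor also set the lines apart. CD7, an early T-cell antigen, had 2242 and 2183 CPM in DND-41 and 85.8 and 93.98 in MOLT-4 (4.62 ± 0.07). CD5, a brake on receptor signalling, had 1.32 and 2.16 CPM in DND-41 and 149.8 and 157 in MOLT-4 (-6.45 ± 0.12), and its relative CD6 1.28 and 2.11 against 95.9 and 103 (-5.87 ± 0.13). CD2, an adhesion partner of CD58, was higher in MOLT-4 (16.5 and 15.1 against 108 and 103 CPM, -2.74 ± 0.07), as was the phosphatase gene PTPRC, which encodes CD45 (52.9 and 53.6 against 318 and 326, -2.59 ± 0.06). Of 31 tested members of the receptor and its proximal signalling 4 were at least 2-fold higher in DND-41 and 12 in MOLT-4. ZAP70, the kinase that binds CD3 chains, was at 341 and 350.1 against 566 and 516 CPM (-0.65 ± 0.06), under 2-fold.

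Stage genes of thymocytes were split as well, with 11 of 26 tested at least 2-fold higher in DND-41 and 9 in MOLT-4, 76.9% in all. RAG1, which cuts receptor genes, had 615 and 599 CPM in DND-41 and 67.1 and 100.1 in MOLT-4 (2.86 ± 0.13), and its partner RAG2 62.4 and 68.2 against 12.9 and 14.5 (2.25 ± 0.09). DNTT, which adds bases at the junctions, went the other way (19.1 and 16.04 in DND-41 and 113 and 111 in MOLT-4, -2.67 ± 0.08). CD1A, a cortical thymocyte antigen, was at 54.1 and 49.7 against 52.7 and 61.03 CPM, overlapping between lines (-0.13 ± 0.08, not called), whereas CD1B was higher in DND-41 (580.0 and 590.4 against 191 and 198, 1.59 ± 0.05) and CD1C in MOLT-4 (2.31 and 1.81 against 21.5 and 24.7, -3.48 ± 0.15). CD4 and CD8A, the coreceptors, were low in both and higher in MOLT-4: CD4 had 5.15 and 5.199 CPM in DND-41 and 18.3 and 19.7 in MOLT-4 (-1.88 ± 0.12), and CD8A 1.57 and 1.86 against 12.4 and 13.9 (-2.93 ± 0.17). CD38, an ectoenzyme and antibody target, was higher in DND-41 (737 and 651 against 109.6 and 114 CPM, 2.63 ± 0.07). IGJ, the immunoglobulin joining chain also found in early lymphoid cells, had 10.7 and 10.9 CPM in DND-41 and 1 and 1 count in MOLT-4.

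The interleukin-7 receptor and inhibitors that it induces were higher in DND-41, and its STAT factors in MOLT-4. IL7R (ENSG00000168685), the receptor's specific chain, had 555 and 509 CPM in DND-41 and 1.18 and 1.899 in MOLT-4 (8.43 ± 0.12; edgeR, adjusted p = 1.79e-13). Of the feedback inhibitors, CISH had 640.1 and 643 CPM against 10.6 and 9.29 (6.01 ± 0.08), SOCS2 169 and 164 against 1.18 and 1.54 (6.93 ± 0.10) and SOCS1 178 and 189.9 against 12.6 and 10.2 (4.01 ± 0.09). PIM1, a survival kinase induced by STAT5, had 328 and 320.0 CPM in DND-41 and 18.1 and 17.6 in MOLT-4 (4.18 ± 0.06). The STAT factors went the other way. STAT5A had 7.61 and 12.5 CPM in DND-41 and 749.9 and 656 in MOLT-4 (-6.13 ± 0.14), and its neighbours on the chromosome STAT5B (87.3 and 82.7 against 241 and 236, -1.49 ± 0.05) and STAT3 (50.3 and 53.5 against 213 and 204, -2.01 ± 0.06) were also higher in MOLT-4. JAK3 was higher in MOLT-4 (16.4 and 20.7 against 68.4 and 62.6 CPM, -1.82 ± 0.10), JAK1 in DND-41 by less than 2-fold (104 and 109.5 against 68.3 and 66.4, 0.66 ± 0.06). The shared chain IL2RG was at 677 and 662 against 511 and 526 CPM (0.37 ± 0.05), and TYK2 at 158 and 165 against 156 and 156 (0.053 ± 0.05, not called). IL9R, which uses the same shared chain, was higher in MOLT-4, at 6.21 and 5.49 CPM against 3 and 1 counts. In each line 10 of 36 tested cytokine receptor and JAK-STAT genes were at least 2-fold higher, 55.6% in all.

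**Figure D3:**
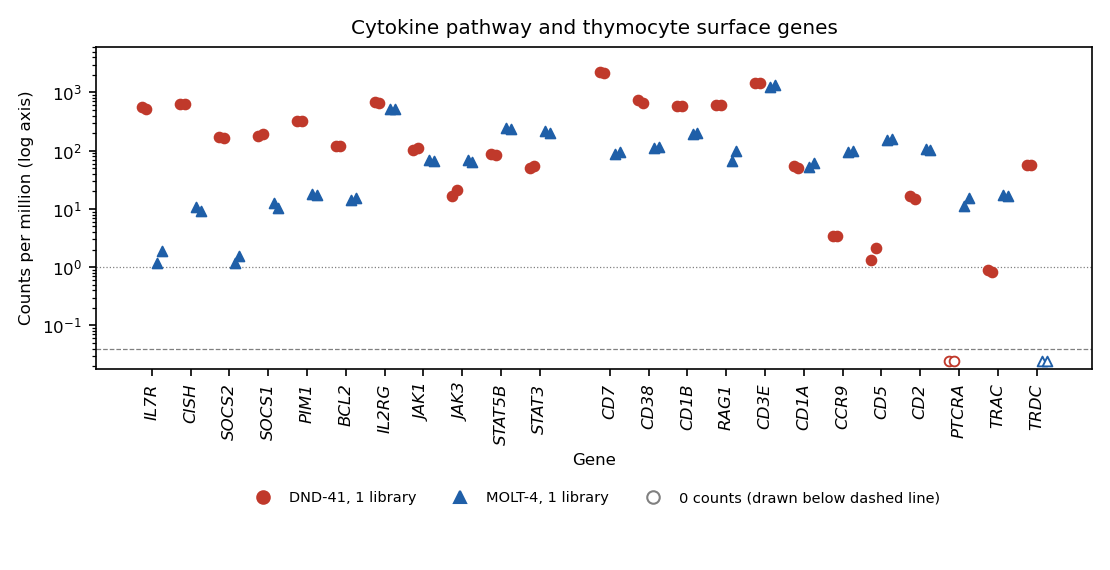
CPM of 11 cytokine pathway genes (left) and 12 thymocyte and receptor genes (right) in each of the 4 DMSO libraries on a log axis: circles are DND-41, triangles MOLT-4, open symbols below the dashed line 0 counts. IL7R, CISH, SOCS2, SOCS1, PIM1 and BCL2 are higher in DND-41 while JAK3, STAT5B and STAT3 are higher in MOLT-4, CD3E and CD1A lie close together, and PTCRA and TRDC are each at 0 counts in one line.

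Notch genes were balanced in direction, with 8 of 33 tested at least 2-fold higher in each line and a median of 0.01. Together these were 48.5% of the tested members, beside 26.2% of all tested genes. NOTCH1 itself was at 904 and 932 CPM in DND-41 and 828 and 819 in MOLT-4 (0.16 ± 0.06; edgeR, adjusted p = 0.0271), a small difference that missed 5% when any 1 of the 4 libraries was left out (0.0662 to 0.166). NOTCH3 was higher in DND-41 (499 and 499.5 against 32.1 and 41.9 CPM, 3.75 ± 0.09), as was DTX1, a Notch target and ubiquitin ligase (1313 and 1426 against 25.6 and 33.3, 5.54 ± 0.11). HES1, the classical Notch target, differed by less than 2-fold (68.9 and 65.97 against 53.8 and 55.4 CPM, 0.30 ± 0.06), as did MYC, a target in T-ALL (967 and 979.6 against 690.0 and 664, 0.52 ± 0.06). The coactivators MAML2 (17.96 and 18.2 against 1.23 and 1.59 CPM, 3.68 ± 0.16) and MAML3 (15.5 and 13.9 against 4.26 and 3.23, 1.97 ± 0.15) were higher in DND-41. PTCRA, described above as present in MOLT-4 and at 0 counts in DND-41, is a Notch target too.

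Of 16 tested BCL2 family genes, survival and killer members together, 5 were at least 2-fold higher in DND-41 and 1 in MOLT-4, 37.5% in all, and the median was 0.66. BCL2 had 120.1 and 118 CPM in DND-41 and 14.2 and 15.7 in MOLT-4 (3.00 ± 0.07), and BCL2L1, which encodes BCL-XL, 489.7 and 484 against 192 and 193 (1.34 ± 0.05). MCL1 was at 94.4 and 81.6 against 82.9 and 85.2 CPM, overlapping (0.066 ± 0.07, not called). The killers BBC3 (PUMA) and PMAIP1 (NOXA) were also higher in DND-41, BBC3 at 11.7 and 10.01 against 1.03 and 0.821 CPM (3.54 ± 0.21) and PMAIP1 at 46.1 and 47.2 against 17.9 and 17.5 (1.40 ± 0.07). Another killer, BIK, was the member higher in MOLT-4 (2 and 2 counts against 71 and 60). The death ligand TNFSF10 (TRAIL) was higher in DND-41 (73.1 and 69.4 against 2.62 and 1.95 CPM, 4.96 ± 0.11), as were the inflammatory caspases CASP1 (2.91 ± 0.15) and CASP4 (2.27 ± 0.07).

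CDKN2A (ENSG00000147889), a tumour suppressor gene whose loss is common in T-ALL, had 533 and 528 CPM in DND-41 and 9 and 42 counts in MOLT-4 (8.66 ± 0.18; edgeR, adjusted p = 1.76e-12). Its neighbour MTAP was at 45.00 and 41.5 CPM in DND-41 and 45.1 and 49.9 in MOLT-4 (-0.14 ± 0.07, not called). CDKN1A, another cell-cycle inhibitor gene, had 19.5 and 17.1 CPM in DND-41 and 2.26 and 2.05 in MOLT-4 (3.08 ± 0.15), the stress-induced GADD45B 56.4 and 61.8 against 6.62 and 5.65 (3.27 ± 0.10) and SESN2 122 and 119 against 36.03 and 33.5 (1.79 ± 0.06). PIK3CD, a lymphocyte PI3K, was higher in DND-41 (171 and 185 against 29.5 and 27.8 CPM, 2.63 ± 0.07). DUSP6, the phosphatase induced by ERK, had 417 and 431 CPM in DND-41 and 6.005 and 6.01 in MOLT-4 (6.14 ± 0.08).

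The targets of the degrader were expressed in both lines. SMARCA4, the main ATPase of SWI/SNF, had 447 and 454 CPM in DND-41 and 581 and 537 in MOLT-4 (-0.31 ± 0.06), and PBRM1, a subunit of the PBAF form, 133 and 132 against 150.3 and 152 (-0.19 ± 0.05). The SMARCA4 call was lost without DND-41 replicate 1 (edgeR, adjusted p = 0.0575), and the PBRM1 call without DND-41 replicate 1 (0.0691) or 2 (0.0608). SMARCA2, the alternative ATPase, was higher in DND-41 (55.4 and 63.2 against 28.1 and 26.5 CPM, 1.12 ± 0.08). VHL, the ligase subunit, was at 69.8 and 66.8 against 52.3 and 55.4 CPM (0.34 ± 0.06). Of 33 tested SWI/SNF genes 3 were at least 2-fold higher in DND-41 and 2 in MOLT-4, 15.2% beside 26.2% of all tested genes. The largest differences were BICRAL, listed under its older symbol GLTSCR1L, in DND-41 (32.2 and 29.3 against 4.67 and 5.18 CPM, 2.64 ± 0.11) and DPF1 in MOLT-4 (0.736 and 0.4905 against 6.42 and 6.21, -3.35 ± 0.25).

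Among Polycomb and other chromatin regulators 1 of 41 was at least 2-fold higher in DND-41 and 4 in MOLT-4, 12.2% in all. TET2, which oxidises methylated cytosine, was restricted to MOLT-4, with 32.5 and 29.2 CPM against 0 and 6 counts in DND-41. PCGF2, a Polycomb subunit, was higher in DND-41 (62.2 and 62.4 against 11.6 and 10.3 CPM, 2.51 ± 0.08). JARID2, a cofactor of the Polycomb complex PRC2, was higher in MOLT-4 (61.8 and 55.1 against 181 and 169.7, -1.58 ± 0.07), as was HDAC7, a thymocyte deacetylase (84.3 and 79.9 against 275 and 269, -1.73 ± 0.06).

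Of 35 tested homing, adhesion and chemokine receptor genes 9 were at least 2-fold higher in DND-41 and 10 in MOLT-4, 54.3% in all. CCR9, the thymus and gut homing receptor, had 3.43 and 3.48 CPM in DND-41 and 94.7 and 97.9 in MOLT-4 (-4.80 ± 0.09). S1PR1, which guides exit from the thymus, was higher in MOLT-4 (3.58 and 2.89 against 37.7 and 36.8 CPM, -3.52 ± 0.12), while its relative S1PR4 had 62.02 and 74.3 CPM in DND-41 and 0.411 and 0.565 in MOLT-4 (7.11 ± 0.18). ITGAL, the LFA-1 integrin chain, was higher in MOLT-4 (12.1 and 14.6 against 189 and 199.97 CPM, -3.86 ± 0.08). CXCR4 was high in both at 214 and 214 against 377 and 371 CPM (-0.81 ± 0.05). Of the checkpoint genes, PDCD1 (PD-1) had 15.1 and 19.04 CPM in MOLT-4 and 0 and 2 counts in DND-41, and LAG3 8.16 and 10.2 CPM and 1 and 3 counts. ICOS (125 and 117 against 4.36 and 5.54 CPM, 4.61 ± 0.10) and CD70 (11.9 and 12.4 against 0.359 and 0.359, 5.05 ± 0.23) were higher in DND-41. Of MHC and antigen presentation genes 1 of 19 tested members reached 2-fold, the peptidase gene ERAP2 in MOLT-4 (27.9 and 24.2 against 109 and 115 CPM, -2.10 ± 0.07), and class II genes such as HLA-DRA and CD74 stayed under 10 counts in each library. Without MOLT-4 replicate 2 the MHC count was 2. Of 39 interferon-stimulated genes 9 were at least 2-fold higher in DND-41 and 5 in MOLT-4, 35.9% in all. IFITM1, a membrane restriction factor, was higher in DND-41 (358 and 386 against 55.9 and 54.7 CPM, 2.75 ± 0.06), and reads may be shared with its near-identical relatives IFITM2 and IFITM3. MX1 (11.6 and 13.00 against 40.7 and 36.9 CPM, -1.65 ± 0.09) was higher in MOLT-4.

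Genes of the B lineage were more abundant in DND-41. The 16 B-cell markers summed to 2273 and 2386 CPM in the DND-41 libraries and 256 and 256 in MOLT-4, so the 2 lines did not overlap. CD79A, a chain of the B-cell receptor also seen in some T-ALL, had 1668 and 1735 CPM in DND-41 and 9.03 and 16.1 in MOLT-4 (7.08 ± 0.16), and accounted for most of the DND-41 sum. EBF1, a B-lineage transcription factor, had 272 and 222 counts in DND-41 and none in MOLT-4, at least 78.7-fold higher. IGLL1, a surrogate light chain gene with a known relative in the immunoglobulin lambda locus, was present in both (454 and 502 against 142 and 140.1 CPM, 1.76 ± 0.06), and its partner VPREB1 was higher in MOLT-4 (1 and 6 counts against 137 and 109). PAX5, MS4A1, CD22 and BLNK, which define B cells, stayed under 10 counts in every library. Of 8 tested natural killer and innate-like genes 5 were at least 2-fold higher in DND-41 and 2 in MOLT-4. NKG7, a cytotoxic granule protein (26.8 and 25.9 against 2.62 and 2.41 CPM, 3.39 ± 0.12), and PRF1, perforin (10.99 and 11.3 against 0.616 and 0.359, 4.50 ± 0.23), were higher in DND-41, and ZBTB16, the innate T-cell factor PLZF, was higher in MOLT-4 (7.801 and 6.11 CPM against 0 and 1 counts), as was the granzyme gene GZMM (3 and 10 counts against 46 and 43). That marker sum was 64.5 and 63.9 CPM in DND-41 and 25.8 and 23.2 in MOLT-4, while KLRD1, NCR1, GNLY and GZMB stayed under 10 counts. The part of either marker set in the other differences was not tested.

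In metabolism, several enzymes were found in 1 line only or nearly so. PSAT1, of serine synthesis, had 48.1 and 50.7 CPM in MOLT-4 and 0 and 7 counts in DND-41, and the enzyme before it, PHGDH, was at 306 and 318 CPM in DND-41 and 233 and 231 in MOLT-4 (0.43 ± 0.05). CBS, which makes cystathionine from serine and homocysteine, had 97.8 and 93.9 CPM in MOLT-4 and 3 and 11 counts in DND-41. ASS1, of arginine synthesis, had 23.9 and 32.5 CPM and 2 and 2 counts. The cystine transporter SLC7A11 was higher in DND-41 (37.6 and 35.2 against 10.1 and 16.01 CPM, 1.48 ± 0.14). Of 23 tested glycolysis genes 0 were at least 2-fold higher in DND-41 and 3 in MOLT-4: ALDOC (6.23 and 11.1 against 332 and 312 CPM, -5.21 ± 0.14), GPI (212 and 219 against 854 and 830.3, -1.97 ± 0.06) and PDK1 (17.8 and 17.7 against 38.4 and 37.6, -1.10 ± 0.08). Without DND-41 replicate 2 the glycolysis count was 5. Of 23 sterol synthesis genes 12 were higher in DND-41 at 5% and 6 in MOLT-4, beside 32.4% and 33.8% of all tested genes. In each line 1 reached 2-fold. INSIG1, which holds back sterol synthesis when sterols are plentiful, was the MOLT-4 one (189.8 and 181 against 531 and 569 CPM, -1.57 ± 0.06). Among genes bearing on drugs used in T-ALL, the glucocorticoid receptor NR3C1 was higher in DND-41 (89.8 and 82.3 against 31.97 and 38.1 CPM, 1.29 ± 0.08) while FKBP5, a glucocorticoid-induced cochaperone, was higher in MOLT-4 (4.66 and 3.63 against 113 and 110.1, -4.75 ± 0.10).

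Some imprinted and germline genes were restricted to 1 line by the 50-fold rule: H19, PLAGL1, NDN and GRB10 of 17 tested imprinted genes, and LIN28B, PRAME and SYCP2 of 5 tested germline genes. Of 17 tested imprinted genes 4 were at least 2-fold higher in DND-41, H19 first, and 8 in MOLT-4. PLAGL1 had 57.1 and 64.5 CPM in MOLT-4 and 1 and 8 counts in DND-41, NDN 15.96 and 17.7 CPM and 0 and 1 count, and ZDBF2 4.62 and 5.902 CPM and no counts, at least 35.8-fold higher. IGF2, which lies beside H19, stayed under 10 counts in all 4 libraries. GNAS was at 1785 and 1841 against 1797 and 1649.7 CPM (0.073 ± 0.07, not called). Of 46 cancer-testis and germline genes 41 were too low to test. LIN28B had 45.6 and 47.2 CPM in DND-41 and 2 and 0 counts in MOLT-4, and PRAME 10.1 and 9.96 CPM and 3 and 1 counts. SYCP2, of the meiotic chromosome axis, had 40.03 and 39.7 CPM in MOLT-4 and 2 and 8 counts in DND-41.

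Growth genes mostly differed by small factors. Of 44 DNA replication and mitosis genes 0 reached 2-fold in either direction, although 11 were higher in DND-41 and 16 in MOLT-4 at 5%. Over all tested genes 32.4% were higher in DND-41 and 33.8% in MOLT-4 at 5%, and the 5% counts here are to be read beside them. CENPE, a kinetochore motor, was at 44.6 and 49.5 against 88.5 and 94.03 CPM (-0.96 ± 0.07), and the proliferation antigen MKI67 at 1728 and 1727 against 2426 and 2344 (-0.47 ± 0.06). Without DND-41 replicate 2 or MOLT-4 replicate 1 the 2-fold count was 1. Of 42 ribosomal protein genes 28 were higher in MOLT-4 and 2 in DND-41 at 5%, with a median of -0.25, and only RPL37 reached 2-fold (227 and 256 against 552 and 470.0 CPM, -1.08 ± 0.08), a count that was 0 without DND-41 replicate 1 or MOLT-4 replicate 1. Ribosomal protein genes have near-identical pseudogenes with which reads may be shared. The 13 mitochondrially encoded genes of the list were 0 of 13 at 2-fold and 11 of 13 higher in MOLT-4 at 5%, with a median of -0.37. All genes with an MT- symbol, which include others beside these 13, took 15.2% and 15.1% of counts in DND-41. In MOLT-4 they took 19.3% and 20%. The cell-cycle kinase CDK6 was higher in MOLT-4 (523 and 469.7 against 1062 and 1377 CPM, -1.30 ± 0.10), and MYCN had 15.1 and 13.8 CPM there and 0 and 1 count in DND-41, while CDK4 was at 82.3 and 88.3 against 82.01 and 80.2 (0.073 ± 0.06, not called).

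**Figure D4:**
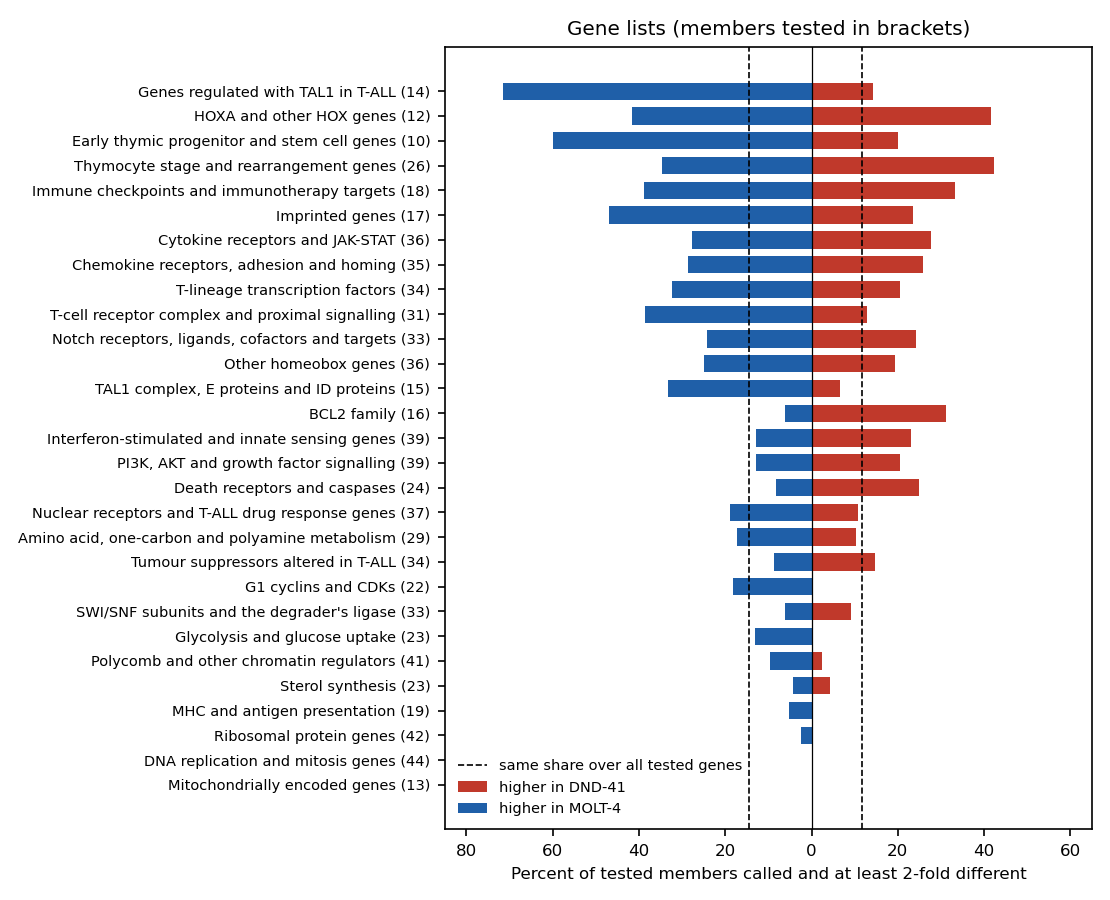
Share of the tested members of 29 of the 30 gene lists with at least 10 tested members each (1 is not reported here) that was called and at least 2-fold higher in DND-41 (bars to the right) or MOLT-4 (bars to the left), in percent, with dashed lines at the shares over all tested genes, 11.8% and 14.5%. TAL1-regulated, HOX, progenitor and thymocyte stage genes are at the top and replication, mitochondrial and ribosomal protein genes at the bottom. A member could pass the count filter through 1 line alone, which favours large differences in lists with many silent genes. Shares of such lists, as HOX (12 of 39 tested) and progenitor genes (10 of 22), are not directly comparable with the dashed lines.

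Differences also followed the chromosomes. Protein-coding genes of at least 5 CPM in either line were assigned to chromosomes by GENCODE release 29. The 135 genes of chromosome 18 had a median log2 fold change of 0.58 (quartiles 0.21 and 0.88), and 85.9% of them had a log2 fold change above 0, called or not. The 103 genes of chromosome 21 had a median of -0.49 (quartiles -0.80 and -0.03), with 22.3% above 0, called or not. Chromosomes 4, 8 and 9 lay at -0.29, -0.26 and -0.30, chromosomes 7, 17 and 20 at -0.22, -0.15 and -0.21, and the remaining 15 between 0.02 and 0.15. Chromosomes 7 and 17 changed most along their length, and chromosome 6 by less. On chromosome 6 the window from TTK to OSTM1 had a median of 0.50, and that from HINT3 to LATS1 -0.20. On chromosome 7 the first 50-gene window, from PDGFA to C1GALT1, had a median of 1.01, and a window further along, from SND1 to NDUFB2, -0.59. On chromosome 17 the window from ANKFY1 to CHRNB1 had a median of 0.65, and every window centred on the 155th or a later gene lay below 0. All values are DND-41 minus MOLT-4, so each is a difference between lines and does not say which line departs from a normal karyotype. DNA copy number was not measured, and its part in these medians was not tested. The named genes on these chromosomes include BCL2 on chromosome 18, ERG on chromosome 21 and CDKN2A on chromosome 9, of which BCL2 and ERG went in the direction of their chromosome's median and CDKN2A against it.

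**Figure D5:**
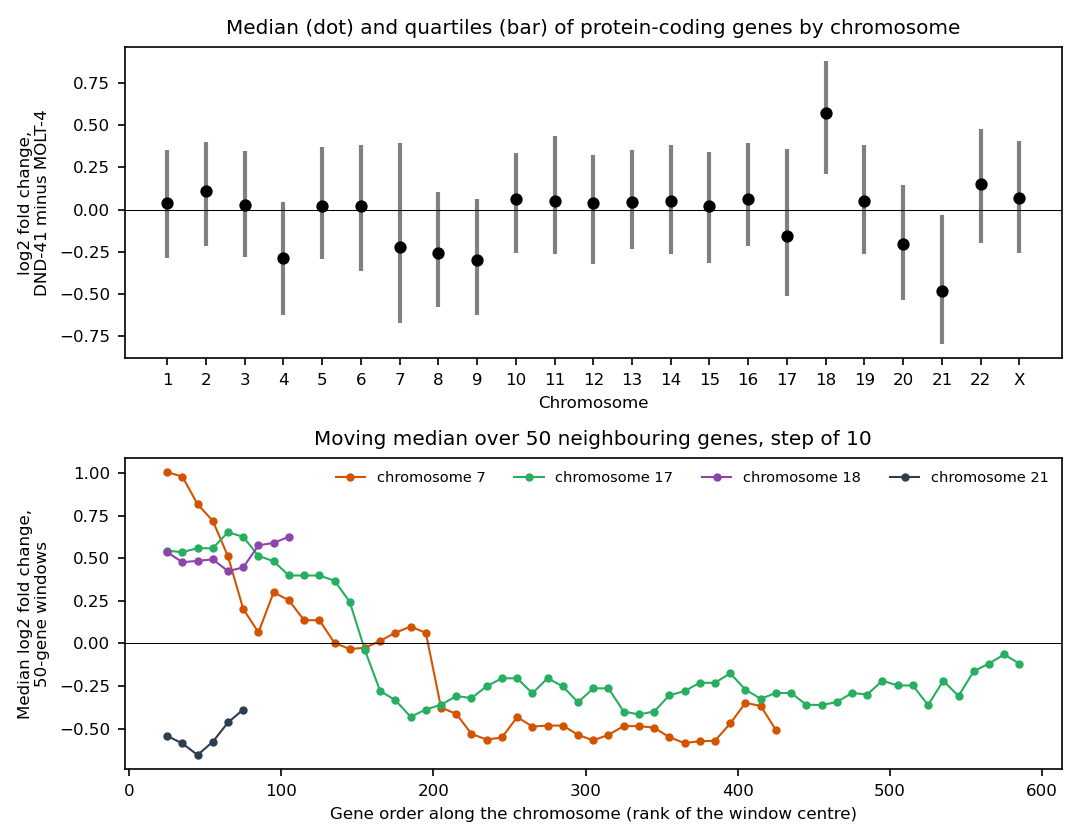
Upper panel, the median (dot) and quartiles (bar) of the log2 fold change, DND-41 minus MOLT-4, of protein-coding genes on each chromosome. Lower panel, the moving median over 50 neighbouring genes in steps of 10, by gene order, for chromosomes 7, 17, 18 and 21: chromosome 18 lies above 0 and chromosome 21 below 0 throughout, while chromosomes 7 and 17 step from above to below 0.

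Some neighbouring genes were higher in the same line. STAT5B, STAT5A, STAT3, PTRF and ATP6V0A1 on chromosome 17 were 5 adjacent genes each at least 2-fold higher in MOLT-4. LTA, TNF, LTB, LST1 and NCR3, in the cytokine part of the MHC region on chromosome 6, were each at least 2-fold higher in DND-41. TNF had 25.6 and 26.9 CPM in DND-41 and 0.513 and 0.359 in MOLT-4 (5.89 ± 0.18), LTB, the lymphotoxin beta subunit, 126 and 129 against 9.19 and 11.2 (3.64 ± 0.08), and LTA 4.71 and 4.46 against 0.359 and 0.411 (3.55 ± 0.28). LAG3 and CD4 on chromosome 12 belonged to a run of 4 higher in MOLT-4, and CISH on chromosome 3 and CD7 on chromosome 17 to runs of 5 and 4 higher in DND-41. In all 14 runs of 4 or more adjacent protein-coding genes at least 2-fold higher in the same line were found, 7 of 5 genes and 7 of 4. They were picked out from all chromosomes after the values were seen and carry no test.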

How the data were processed

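RNA-seq read counts per Ensembl gene, 1 deposited table for each line, were used as the authors made them. Per the submitters' processing notes the reads were handled with STAR 2.5.2a, featureCounts and DESeq2 1.12.4 on hg19; no source used here states the annotation, the strand setting or any spike-in. Gene symbols came from the authors' deposited tables. The 4 DMSO columns were joined by Ensembl identifier, giving 63677 genes, of which 14984 passed edgeR's filterByExpr. They were scaled by TMM and tested with edgeR 4.0.16's quasi-likelihood test (R 4.3.3), 2 against 2, with Benjamini-Hochberg adjustment over all tested genes. The threshold was an adjusted p of 0.05, and 2-fold where stated. CPM use the TMM-scaled totals of tested genes. Ratios against 1 to 3 counts carry a 95% counting interval, and floors are 3 counts per library; both cover counting error only.

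The members, the 37 lists (1050 of 1052 symbols were found in the tables) and the tests were chosen with earlier results of these data known. Named genes are 38 regulators, per line the 15 genes of at least 20 CPM with the largest ratio (receptor segments left out), and in each list up to 6 members of largest change and 3 abundant members under 2-fold. Beyond that rule CD1B, CD2, CD38, RAG2, JAK1, JAK3, STAT3, STAT5B, TRBC2, the receptor segments, MTAP, NFKB1, TRIB2, CDK4, BIK, GZMM, KRT8, COL1A1, HOXA3, HOXA5, HOXA6, HOXA10, the genes too low to test and those of windows and neighbour runs were picked after their values were seen. Gene type, chromosome and order came from GENCODE 29, which had an entry for 97.2% of tested genes; its coordinates were not used.

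Tested on simulated data of 14572 genes, the fit recovered 97 of 100 genes changed 2-fold and 46 of 100 changed 1.5-fold, with 6 false among 149 calls. Only 200 genes were changed there, a far smaller share than was called in the data. They were picked among genes with higher counts, and every gene had the same set spread. The recovery and the false calls hold for those settings and were not measured for this comparison. Alternatives were other scalings, DESeq2 1.42.0, limma-voom (limma 3.58.1), no filter, stricter thresholds, glmTreat, a replicate block, subtraction of MOLT-4 reads and leaving out each library. Chromosome medians were added to these after the data were seen. Some named-rule genes are not reported here.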

Additional observations from a re-analysis of the deposited data

How the results depend on the processing

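The count of genes passing 5% lay between 7272 and 10053 under all alternatives but one: a test against a minimum fold of 2 (edgeR's glmTreat) called 3026 genes, 1285 higher in DND-41 and 1741 in MOLT-4, which is a stricter question by construction. Leaving out each library in turn gave 7272 to 7946 genes at 5%, 3611 to 3660 at 2-fold, and 113 to 121 and 240 to 270 restricted genes. With 1 library left in a line, that library is assumed to vary like the pair of the other line. At 20-fold in place of 50-fold, 191 genes were restricted to DND-41 and 394 to MOLT-4. DESeq2 called 8443 genes at 5% and 3630 at 2-fold. No gene called 2-fold in both the main test and an alternative changed direction. Genes with differences near 0 that were not called can change sign between settings. MCL1, not called in any setting, lay at -0.0366 to 0.1527 with 1 library left out and was negative without DND-41 replicate 1. The cause was not tested. The labels do not say whether same-numbered libraries of the lines were prepared as pairs. Deviations of same-numbered libraries correlated at -0.015, which with 2 pairs cannot decide it. The replicate block called 9779 genes at 5% and 3929 at 2-fold, 3921 of them shared with the unblocked test, and NOTCH1 (edgeR, adjusted p = 0.0778) and IKZF1 (0.0905) were the named genes whose calls it ended. Depth limits genes under about 10 counts in every library, which were not tested, and a line's zero counts allow up to 3 counts per library.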
